A study of Mus musculus with 32 samples.

Results

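The Ly6 surface antigen family was followed here through 6 genes, Ly6a, Ly6c1, Ly6c2, Ly6d, Ly6e and Ly6i, chosen by name and found by symbol in the gene tables, 6 of the 29511 genes with deposited counts. RNA came from 32 samples of female FVB/N mice, either wildtype (WT) or constitutive Clic4 knockout (KO) littermates. The mice entered experiments at 6 to 8 weeks of age, and their age at sampling was not given. The samples were 6DT1-derived orthografts taken 14 days after 100000 cells were placed in a mammary fat pad (6 KO and 6 WT hosts), pre-metastatic lungs of hosts at the same 14 days (6 KO and 6 WT) and control lungs at baseline without a graft (4 KO and 4 WT). 6DT1 is a mouse mammary tumor line from an MMTV-Myc transgenic mouse, and its cells carried Clic4 in both kinds of host, so that only the host cells of a tumor differed in genotype. Lungs were split into lobes, and all tissue was frozen before RNA extraction and is therefore a mixture of cell types. The comparisons addressed how host genotype changes the tumor, and how a distant tumor changes the lung of each genotype.

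Ly6 proteins are small, disulfide-rich surface proteins that are held in the membrane by a lipid (GPI) anchor. They are used as surface antigens to tell blood and epithelial cell types apart, and several are known targets of interferon. Ly6a encodes Sca-1, a stem cell, endothelial and activated lymphocyte antigen, whereas Ly6c1 and Ly6c2 encode the Ly6C antigens of endothelial cells and of inflammatory monocytes. Ly6e is a broadly expressed interferon-inducible member, Ly6d marks early B cell commitment and squamous epithelium, and Ly6i is a myeloid relative of Ly6a.

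All 6 genes lie on chromosome 15 of GRCm38 within 349.9 kb, from Ly6d (ENSMUSG00000034634, 74762056 to 74763620, minus strand) to Ly6c2 (ENSMUSG00000022584, 75108158 to 75111970, minus strand). Between them lie Ly6e (ENSMUSG00000022587, 74955051 to 74959905, plus strand), Ly6i (ENSMUSG00000022586, 74979534 to 74983430), Ly6a (ENSMUSG00000075602, 74994877 to 74998031) and Ly6c1 (ENSMUSG00000079018, 75044018 to 75048830), the last 3 on the minus strand. GENCODE M21 lists all 6 as protein-coding. Of 17 other genes in the interval, 12 had a count row, and the single gene with enough counts to be tested, 2010109I03Rik, was called in neither tumors nor lungs.

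The likeness of these genes bears on how reads are shared among them, and the first 300 coding bases are therefore shown for the nearest pairs. Coding bases of Ly6c1 and Ly6c2 were identical at 384 of 393 aligned positions (97.7%). In the stretch below, 7 bases differ between them and stand in capitals.
Ly6c1: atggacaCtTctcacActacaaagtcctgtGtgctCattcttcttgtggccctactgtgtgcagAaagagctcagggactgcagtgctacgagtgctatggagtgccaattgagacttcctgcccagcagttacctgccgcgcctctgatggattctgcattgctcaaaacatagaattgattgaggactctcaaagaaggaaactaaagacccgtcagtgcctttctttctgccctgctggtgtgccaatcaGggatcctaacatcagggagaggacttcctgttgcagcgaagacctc
Ly6c2: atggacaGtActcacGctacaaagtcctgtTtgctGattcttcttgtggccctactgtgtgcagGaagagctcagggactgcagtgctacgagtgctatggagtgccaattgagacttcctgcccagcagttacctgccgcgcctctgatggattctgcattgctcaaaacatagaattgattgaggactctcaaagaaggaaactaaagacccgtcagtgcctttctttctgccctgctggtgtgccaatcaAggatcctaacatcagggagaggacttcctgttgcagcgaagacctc
Ly6a and Ly6i were identical at 347 of 402 positions (86.3%), and the 47 bases that differ in their first 300 are in capitals.
Ly6a: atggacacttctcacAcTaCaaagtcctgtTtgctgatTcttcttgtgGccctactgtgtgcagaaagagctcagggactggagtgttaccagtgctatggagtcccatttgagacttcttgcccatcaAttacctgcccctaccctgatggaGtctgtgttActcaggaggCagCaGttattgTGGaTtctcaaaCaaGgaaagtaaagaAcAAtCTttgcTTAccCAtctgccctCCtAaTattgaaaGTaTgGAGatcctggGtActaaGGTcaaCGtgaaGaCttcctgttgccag
Ly6i: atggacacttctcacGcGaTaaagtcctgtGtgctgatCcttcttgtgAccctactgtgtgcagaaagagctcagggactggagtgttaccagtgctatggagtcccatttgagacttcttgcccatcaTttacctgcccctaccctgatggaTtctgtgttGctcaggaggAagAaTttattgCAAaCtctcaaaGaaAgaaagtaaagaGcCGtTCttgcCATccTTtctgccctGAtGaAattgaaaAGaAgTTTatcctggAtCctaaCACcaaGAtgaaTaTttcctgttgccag
All 4 stretches are from the C57BL/6J reference, and FVB/N alleles were not examined.

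Of the distinct 50-base stretches in its transcripts, Ly6c1 shared 32.8% with another gene, Ly6a 19.0%, Ly6c2 14.4% and Ly6i 4.76%, while Ly6d and Ly6e shared none. Reads from shared stretches were split among these genes by estimate in the deposited values, and the values of Ly6a, Ly6c1, Ly6c2 and Ly6i are uncertain to that extent.

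The gene counts of a sample summed to 4446323 at the lowest and 8318711 at the highest (median 5384934). Clic4 was lower in KO than in WT lungs at 14 days (65.1 ± 7.49 against 181 ± 30.6 FPKM, SD, n = 6 each) and in controls (61.2 ± 5.98 against 165 ± 6.61 FPKM, n = 4 each), and the groups did not overlap. The paper states that the reads left in KO lungs come from outside the excised part of the gene. It also reports no detectable protein in lung fibroblasts of KO mice. In tumors, where the grafted cells carry the gene, Clic4 was 65.3 ± 4.05 FPKM in KO and 77.5 ± 2.66 FPKM in WT hosts (n = 6 each). Lung epithelial markers summed to 32927 to 39448 FPKM in lungs and to 1.76 to 8.0 FPKM in tumors, and the luminal epithelial markers to 320.9 to 477.3 FPKM in tumors. In a list of 24 type I interferon response genes, 3 lungs stood apart from the other 17. Replicate 2 of the 14-day KO lungs, replicate 5 of the 14-day WT lungs and replicate 4 of the control WT lungs had mean log2 CPM of 6.61, 6.67 and 5.40, against 3.42 to 4.84 in the others. The differences of the members between 14-day and control lungs are given with and without these 3 libraries, and all p-values measure only the spread between these samples.

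Ly6e was the most abundant member per length of transcript in every group, followed by Ly6a, Ly6c1 and Ly6c2, with Ly6d and Ly6i lowest. Mean Ly6e levels ran from 500.5 ± 56.8 FPKM (SD, n = 6) in WT tumors to 636.5 ± 224 FPKM (n = 6) in 14-day KO lungs. Ly6a was next, between 89.4 ± 23.1 FPKM in WT tumors and 433 ± 178 FPKM in 14-day WT lungs (n = 6 each). Ly6c1 came next in every group, at 77.3 ± 11.3 FPKM in WT tumors and 263 ± 41.9 FPKM in 14-day KO lungs (n = 6 each). Ly6c2, the close copy of Ly6c1, was much lower, with means of 10.1 to 26.9 FPKM over the 6 groups. Means of Ly6d ran from 5.00 to 8.76 FPKM and those of Ly6i from 0.672 to 5.21 FPKM. Ly6e exceeded Ly6a and Ly6c1 exceeded Ly6c2 in all 32 samples. Ly6a exceeded Ly6c1 in every sample but 1 of the 6 WT tumors. Ranges of Ly6e and Ly6a overlapped in the 4 lung groups, those of Ly6a and Ly6c1 in WT tumors and both 14-day lung groups, and those of Ly6c2 and Ly6d in tumors. Ly6d and Ly6i overlapped in every group except WT tumors, where Ly6d was higher in 6 of 6.

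**Figure D1:**
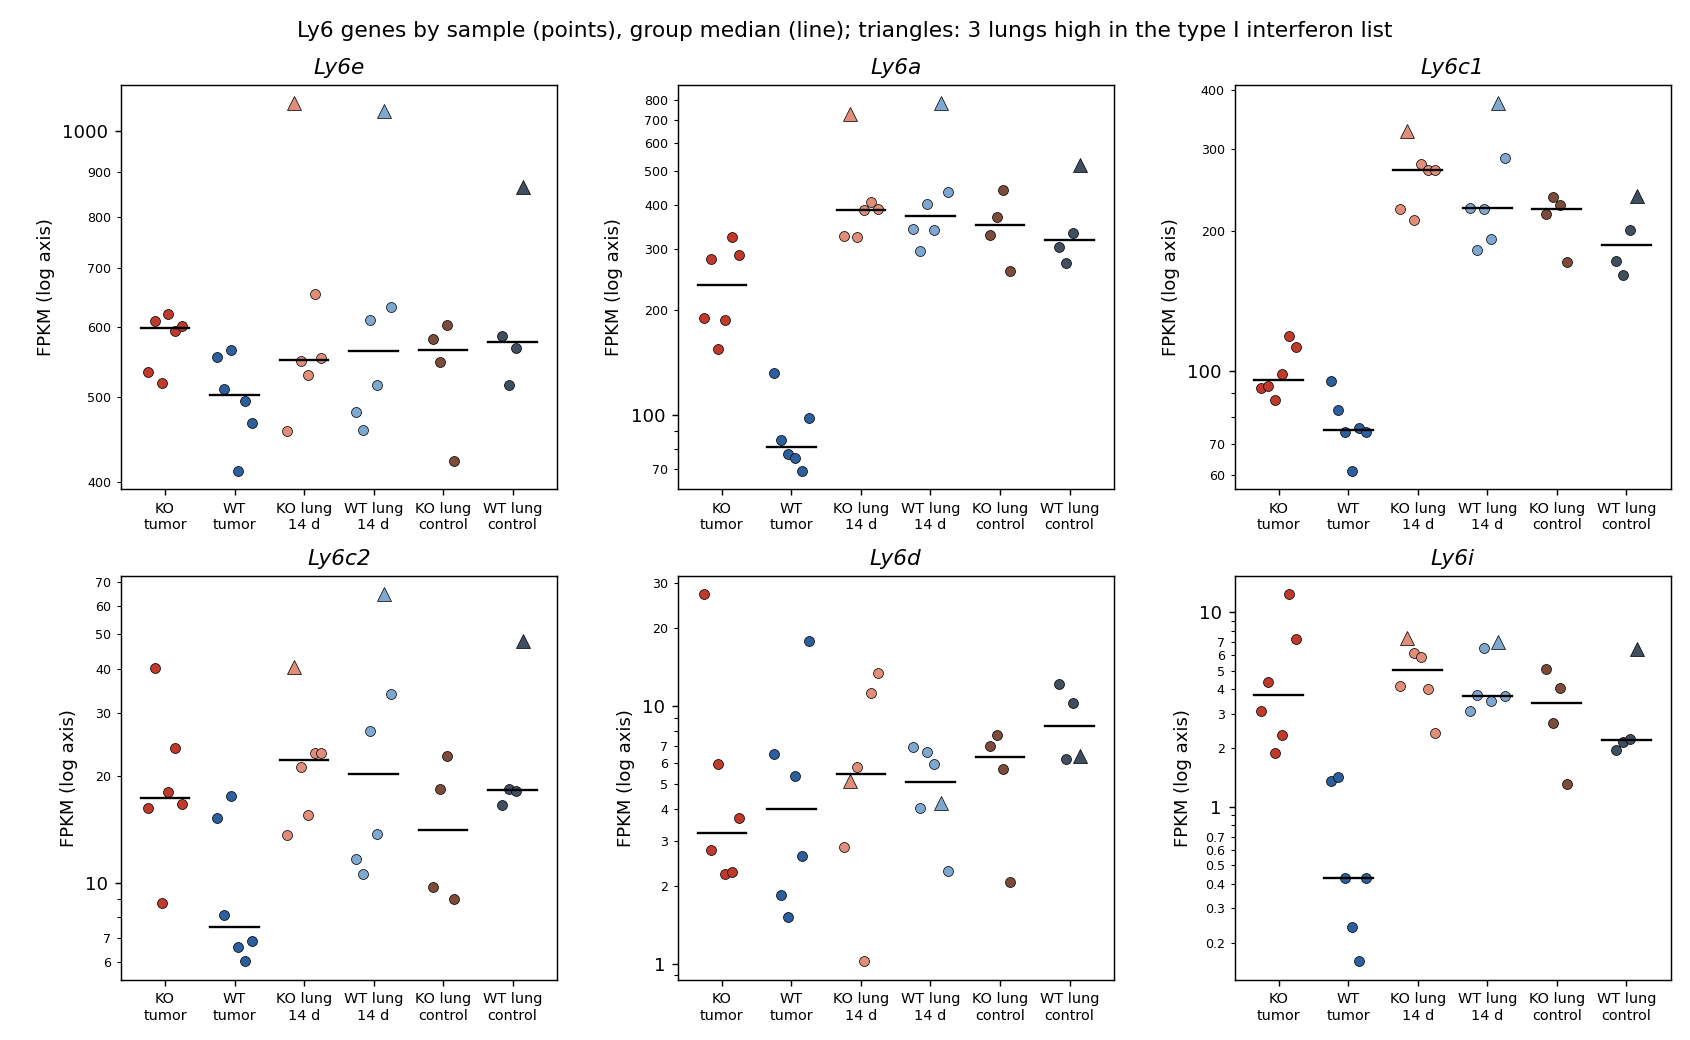
FPKM (log axis) of the 6 Ly6 genes in each of the 32 samples by group, with a line at the group median and triangles for the 3 lungs high in type I interferon genes. Every KO tumor lies above every WT tumor for Ly6a and Ly6i, and the triangles are the highest points of their groups for Ly6e, Ly6a, Ly6c1, Ly6c2 and Ly6i.

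In tumors from KO hosts, Ly6a was 2.76-fold higher than in tumors from WT hosts, and Ly6c1 and Ly6e rose by less. Ly6a FPKM were 155 at the lowest, 235 at the median and 325 at the highest in KO tumors, and 69.3, 80.9 and 131.9 in WT tumors. The 2 groups did not overlap. The log2 fold change was 1.46 ± 0.19 (SE), with an FDR of 0.000473 by edgeR's quasi-likelihood test. Ly6a ranked 40th of the 13830 genes tested by p. In these bulk tissues, more cells carrying a transcript and more of it per cell cannot be told apart.

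Ly6c1 FPKM had a lowest, median and highest value of 86.8, 96.0 and 119 in KO tumors and of 61.3, 75.0 and 95.5 in WT tumors, ranges that overlap in 1 WT tumor. Its log2 fold change was 0.41 ± 0.10 (SE; edgeR FDR = 0.0319). For Ly6e, the values were 518, 597 and 621 FPKM in KO tumors and 412, 503 and 565 FPKM in WT tumors. The log2 fold change of Ly6e was 0.28 ± 0.07 (SE; edgeR FDR = 0.0429), and the groups overlapped. Thus 3 of the 4 members tested in tumors rose in KO hosts and none fell, where 2.02% of all genes tested rose. The median log2 fold change of the 4 was 0.65, beside -0.01 over all genes tested.

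The calls of Ly6c1 and Ly6e lay close to the limit of 0.05. Ly6c1 lost its call without KO tumor 2, 5 or 6 or without WT tumor 2, 3, 4 or 5 (FDR 0.0534 to 0.0916), and Ly6e without KO tumor 1, 2, 4, 5 or 6 or WT tumor 2, 4, 5 or 6 (FDR 0.0611 to 0.121). Neither was called by limma on log2(FPKM + 1) (FDR = 0.1085 for Ly6c1 and 0.287 for Ly6e) or on log2(FPKM + 0.1) (0.1125 and 0.286). With the replicate number as a block, edgeR no longer called Ly6e (FDR = 0.123). Ly6a kept its call whichever tumor was left out (FDR 0.000143 to 0.00266), and under a 2-fold limit it was the 1 member called, beside 1.06% of all genes.

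Ly6c2, the monocyte-type Ly6C gene, had a lowest, median and highest value of 8.80, 17.3 and 40.1 FPKM in KO tumors and of 6.02, 7.50 and 17.6 FPKM in WT tumors. The groups overlapped widely, and KO tumor 2 stood above all others. The log2 fold change of Ly6c2 was 0.89 ± 0.31 (SE; edgeR FDR = 0.173), and 0.57 ± 0.25 without KO tumor 2 (FDR = 0.318). KO tumor 2 was also the highest tumor in the type I interferon list, at a mean log2 CPM of 6.00 against 4.46 to 5.36 in the others, and the part of that list in the value was not tested.

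Ly6i and Ly6d had too few counts in tumors to pass edgeR's filter. Ly6i FPKM had a lowest, median and highest value of 1.89, 3.73 and 12.4 in KO tumors, from 8 to 67 counts. In WT tumors they were 0.16, 0.43 and 1.42, from 1 to 7 counts. Every KO tumor was above every WT tumor, as for Ly6a, and these 2 members stand beside 0.613% of all genes with any FPKM in tumors that separated the groups in this way. When the filter was dropped, the log2 fold change of Ly6i was 2.87 ± 0.54 (SE), with an FDR of 0.00774 by edgeR. In that fit Ly6e lost its call (FDR = 0.0702). Ly6d reached 27.2 FPKM in KO tumor 1 and 17.9 FPKM in WT tumor 6, and lay between 1.52 and 6.51 FPKM in the other 10 tumors. Without the filter, its log2 fold change was 0.33 ± 0.66 (edgeR FDR = 0.883).

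Lists of interferon genes and cell type markers were counted in the same fit to place the members among other genes. Of 26 interferon-gamma response genes, 23 rose in KO tumors and none fell (median log2 fold change 1.51), with Psmb9, an immunoproteasome subunit, at 1.66 ± 0.14 (SE; edgeR FDR = 4.33e-05). The list was led in level by B2m, Gbp2 and Psmb8, with mean FPKM over tumors of 959, 120.2 and 112.1. Mean log2 CPM of this list was 6.29 to 7.16 in KO and 5.05 to 5.67 in WT tumors, and as with Ly6a the groups did not overlap. Of 24 type I interferon response genes, 1 rose, Stat2 (0.99 ± 0.20; FDR = 0.0135), and the median was 0.35. That list was led by Bst2, Oasl2 and Ddx58 (67.8, 54.7 and 37.1 FPKM).

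Ly6C marks monocytes, and 2 of 12 monocyte markers rose, the smallest p being that of Plac8 (log2 fold change 1.25 ± 0.22; edgeR FDR = 0.00446). The summed FPKM of the 12 monocyte markers were 326 to 409 in KO and 165 to 373 in WT tumors, and none was at 0 in every sample. None of 14 endothelial markers tested was called in tumors (median log2 fold change 0.16). The medians of the monocyte, NK cell and T cell lists were 0.62, 0.68 and 0.89, beside 0.65 for the 4 members tested. Those of the macrophage, neutrophil, plasmacytoid dendritic and B cell lists were lower, at 0.33, 0.40, 0.50 and 0.45. The 16 endothelial markers summed to 107 to 173 FPKM in KO and 102 to 134 FPKM in WT tumors. Of macrophage markers 1 of 10 rose (C1qb, 0.73 ± 0.17; FDR = 0.0371), of T cell markers 2 of 9 (Cd3g smallest in p, 1.31 ± 0.31; FDR = 0.0389) and of NK cell markers 2 of 8 (Nkg7, 1.35 ± 0.26; FDR = 0.0093). No fibroblast (10 tested), neutrophil (6), luminal (6), squamous (5), plasmacytoid dendritic (2) or B cell (1) marker was called. The part of these cell types in the Ly6 values was not tested.

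**Figure D2:**
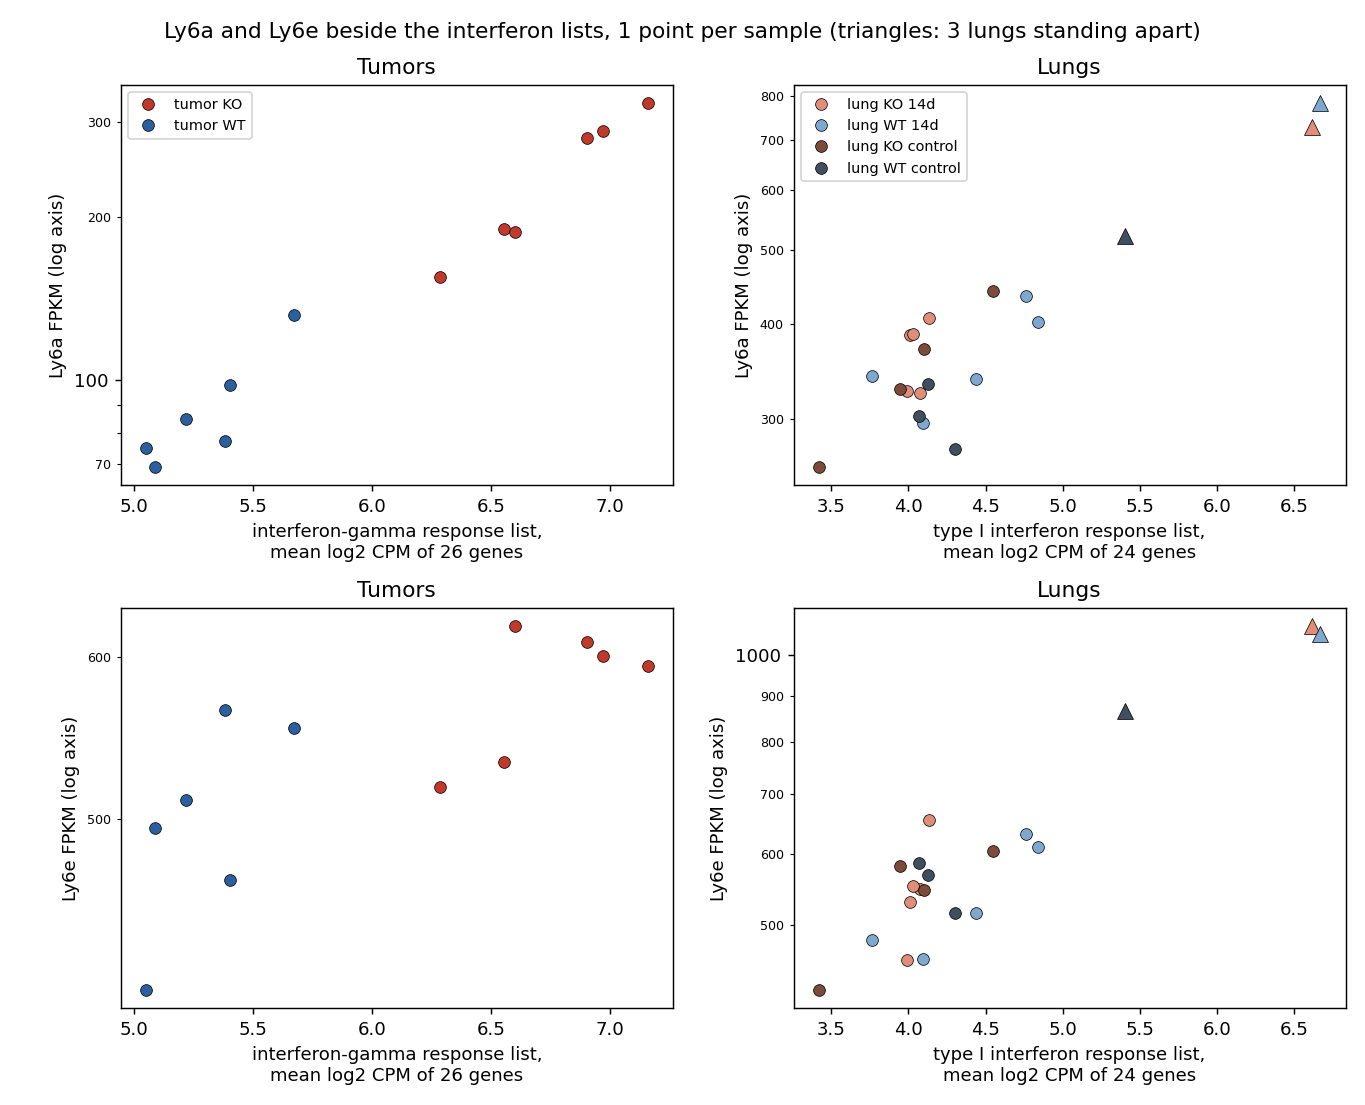
Ly6a (top) and Ly6e (bottom) FPKM on a log axis against the mean log2 CPM of 26 interferon-gamma response genes in 12 tumors (left) and of 24 type I interferon response genes in 20 lungs (right), 1 point per sample. KO tumors lie to the right of all WT tumors, at 6.29 or more, and the 3 lungs drawn as triangles lie apart at 5.40 to 6.67.

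In lungs, none of the 6 members passed the FDR limit of 0.25 between 14 days and control in either genotype. The counts called were 0 of 6 in KO and 0 of 6 in WT lungs by edgeR. DESeq2 also called 0, of the 4 members with an adjusted p in KO (none for Ly6d and Ly6i) and the 5 in WT lungs (none for Ly6i). They stand beside 1.05% of all genes called in KO and 2.33% in WT lungs. At an unadjusted p under 0.05 there were 0 members in KO lungs and 1 in WT lungs, Ly6c1, beside 8.64% and 11.75% of all genes.

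Ly6c1, the endothelial-type Ly6C gene, had the smallest p of the family in both genotypes. Its lowest, median and highest FPKM were 211, 269.7 and 327.5 in 14-day KO lungs, and the 4 control KO lungs were at 171, 218, 227 and 236. In WT lungs they were 182, 224 and 375 at 14 days, and the 4 controls were at 161, 172, 201 and 238. Both 14-day groups overlapped their controls. The log2 fold change of Ly6c1 was 0.31 ± 0.17 in KO lungs (SE; edgeR FDR = 0.629) and 0.37 ± 0.17 in WT lungs (FDR = 0.401). Without the 3 lungs, Ly6c1 was at 0.23 ± 0.12 and 0.32 ± 0.13 in the respective genotypes (FDR = 0.540 and 0.383).

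Ly6a and Ly6e, the interferon-inducible members, had their highest lung values in the 3 lungs that stood apart. Ly6a FPKM were 324, 388 and 728 at the lowest, median and highest in 14-day KO lungs, with 259, 328, 371 and 442 in the controls. In WT lungs, Ly6a was 296, 372 and 782 FPKM at 14 days, with 274, 303, 333 and 522 in the controls. The values of 728, 782 and 522 belong to those 3 lungs. Its log2 fold change was 0.30 ± 0.26 in KO (edgeR FDR = 0.776) and 0.29 ± 0.26 in WT lungs (FDR = 0.698). Without the 3 lungs, the values for Ly6a were 0.07 ± 0.12 (FDR = 0.903) and 0.27 ± 0.13 (FDR = 0.463).

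Ly6e followed the same libraries, at 1076 FPKM in KO lung 2 and 1054 FPKM in WT lung 5 at 14 days and at 865 FPKM in control WT lung 4. All other lungs were between 423 and 654 FPKM. The log2 fold change of Ly6e from control to 14 days was 0.26 ± 0.22 in KO lungs (edgeR FDR = 0.774) and -0.00 ± 0.22 in WT lungs (FDR = 0.997), and 0.04 ± 0.10 (FDR = 0.937) and -0.03 ± 0.11 (FDR = 0.948) without the 3 lungs. The part of type I interferon genes in these values was not tested.

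Ly6c2 was highest in the same 3 lungs, at 40.3 FPKM in 14-day KO lung 2, 64.8 FPKM in 14-day WT lung 5 and 47.7 FPKM in control WT lung 4. In the other 17 lungs it ran from 9.04 to 33.9 FPKM. Its log2 fold change was 0.20 ± 0.38 in KO and 0.11 ± 0.36 in WT lungs (edgeR FDR = 0.913 and 0.929), and 0.0428 ± 0.24 and 0.0969 ± 0.26 without the 3 lungs (FDR = 0.975 and 0.923). Ly6i, at 1.31 to 7.31 FPKM over the 20 lungs, had a log2 fold change of 0.58 ± 0.37 in KO and 0.71 ± 0.37 in WT lungs (FDR = 0.707 and 0.462). Without the 3 lungs, the value of Ly6i was smaller in KO lungs, at 0.37 ± 0.32 (FDR = 0.742), and larger in WT lungs, at 1.06 ± 0.36 (unadjusted p = 0.00821, FDR = 0.291). Ly6d differed by 0.26 ± 0.46 in KO and -0.81 ± 0.43 in WT lungs (FDR = 0.910 and 0.475), and by 0.32 ± 0.49 and -0.89 ± 0.49 without the 3 lungs (FDR = 0.880 and 0.5263).

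No member was called between KO and WT lungs. At 14 days 0 of 6 members passed the limit, beside 0.861% of all genes, and in controls 0 of 6, beside 0.973%. DESeq2 called 0 of 6 at 14 days and 0 of the 3 members with an adjusted p in controls (none for Ly6c2, Ly6d and Ly6i), and no member had an unadjusted p under 0.05 by edgeR. The log2 differences of KO from WT lungs lay between -0.26 (Ly6c2) and 0.40 (Ly6d) at 14 days, and between -0.66 (Ly6d) and 0.18 (Ly6c1) in controls. For Ly6a, which separated the tumors, the differences were -0.00 ± 0.23 at 14 days and -0.01 ± 0.28 in controls. Without the 3 lungs, Ly6c1 in controls had a difference of 0.29 ± 0.14 at an unadjusted p of 0.0490 (edgeR FDR = 0.370). The interaction of genotype and tumor was called for 0 of 6 members, beside 0.0499% of all genes, with none under an unadjusted p of 0.05 and 0 by DESeq2 of the 4 with an adjusted p (none for Ly6d and Ly6i). Its largest value was that of Ly6d, at 1.06 ± 0.63 (edgeR FDR = 0.683).

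Marker and interferon lists were counted in the same lung fit. Of 9 neutrophil markers tested, 2 rose in KO lungs (Csf3r smallest in p, log2 fold change 1.42 ± 0.40; edgeR FDR = 0.217) and 4 in WT lungs (Cxcr2, 1.34 ± 0.29; FDR = 0.101). No interferon-gamma (24 tested), type I interferon (24) or monocyte (12) gene was called in either genotype, with median log2 fold changes of 0.34, 0.99 and 0.36 in KO and 0.26, 0.69 and 0.21 in WT lungs. The median sample of the type I list was at a mean log2 CPM of 4.05 in 14-day and 4.02 in control KO lungs, and of 4.6 and 4.215 in WT lungs. The part of the 3 lungs that stood apart in these list medians was not tested. Of 16 endothelial markers, Eng rose in KO lungs (0.29 ± 0.08; FDR = 0.206) and none was called in WT lungs. Of 10 B cell markers, none was called in KO lungs (median log2 fold change 0.43) and Spib was lower in WT lungs (-0.91 ± 0.27; FDR = 0.202; median -0.71), beside 0.26 and -0.81 for Ly6d. Single genes of other lists were also called, with Klk1 higher in KO lungs and Siglech, Col1a1 and Sftpb lower in WT lungs (smallest p of the plasmacytoid, fibroblast and lung epithelial lists).

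**Figure D3:**
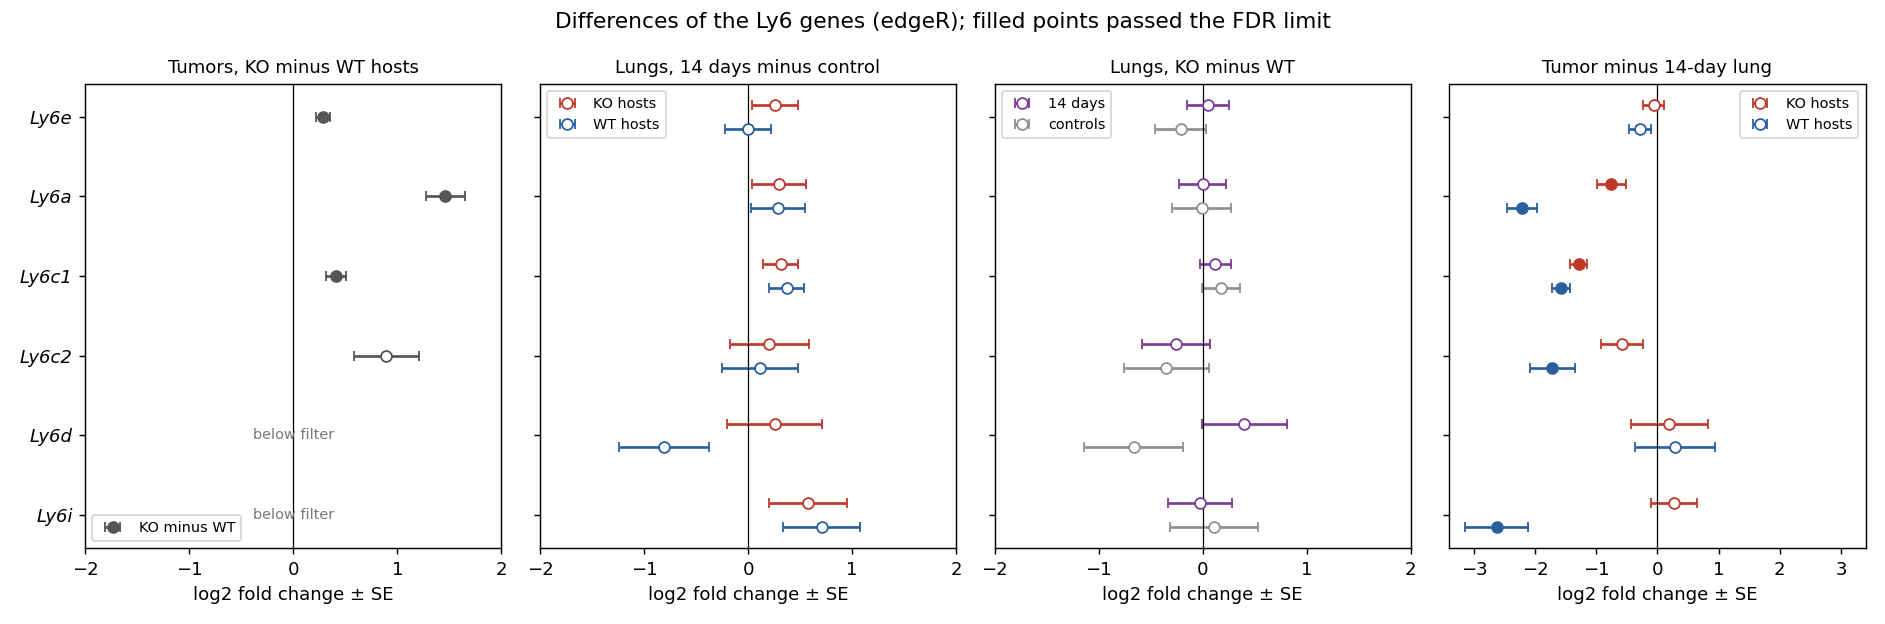
Log2 fold change ± SE of the 6 Ly6 genes in tumors (KO minus WT hosts), in lungs (14 days minus control, and KO minus WT) and between tumor and 14-day lung, with filled points for those that passed the FDR limit of 0.05, or 0.25 in the lung panels, and Ly6d and Ly6i below the filter in tumors. No point is filled in the lung panels, and Ly6a in tumors is at 1.46.

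Between tumor and lung of the same time point, Ly6a and Ly6c1 were lower in tumor in both hosts. In WT hosts, 4 of 6 members were lower in tumor than in lung and none was higher, beside 38.4% of all genes that were lower. The log2 difference of tumor from lung was -2.63 ± 0.51 for Ly6i (SE; edgeR FDR = 5.33e-05), -2.21 ± 0.25 for Ly6a (FDR = 1.07e-08), -1.72 ± 0.36 for Ly6c2 (FDR = 0.00015) and -1.57 ± 0.15 for Ly6c1 (FDR = 3.38e-10). Ly6i, with 1 to 7 counts in WT tumors, was below the filter in the tumor fit and passed it here through the lungs, the higher group, so that its place among the 4 is no support for a difference of the family. The FPKM of Ly6a, Ly6c1 and Ly6i in WT tumors were below those of every 14-day WT lung, as were those of 18.1% of all genes. In KO hosts, 2 of 6 were lower in tumor, beside 37.2% of all genes. These were Ly6c1, at -1.29 ± 0.14 (edgeR FDR = 1.03e-08), and Ly6a, at -0.75 ± 0.23 (FDR = 0.00555). Ly6c1 was the 1 member whose KO tumors all lay below every 14-day KO lung, again beside 18.1% of all genes. In both hosts most genes were called between the tissues, 75.5% in WT and 74.2% in KO.

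Ly6e did not differ detectably between tumor and lung, at -0.29 ± 0.17 in WT and -0.06 ± 0.17 in KO hosts (edgeR FDR = 0.138 and 0.757). Without 14-day KO lung 2 from the fit, the WT difference passed the limit (-0.32 ± 0.13; FDR = 0.0348), and without the 2 lungs high in type I interferon genes it did not (-0.08 ± 0.09; FDR = 0.386). Ly6c2 in KO hosts was at -0.58 ± 0.35 (FDR = 0.135), and without KO tumor 2 at -0.88 ± 0.34 (FDR = 0.0237). Ly6d differed by 0.29 ± 0.66 in WT and 0.19 ± 0.63 in KO hosts (FDR = 0.702 and 0.792). Without KO tumor 1 its KO difference was -0.90 ± 0.58, and without WT tumor 6 its WT difference was -0.45 ± 0.67 (FDR = 0.164 and 0.556). Ly6i differed in KO hosts by 0.27 ± 0.38 (FDR = 0.527). As background to these tissue differences, all 16 endothelial markers were lower in tumor than in lung in both hosts (Pecam1 at -3.73 ± 0.09 in WT), while 9 of 10 macrophage markers were higher (C1qa at 2.71 ± 0.15 in WT). Of 12 monocyte markers, 8 were higher in both hosts, with 2 lower in WT and 1 in KO. Lower in WT were 7 of 9 neutrophil, 8 of 10 B cell, 7 of 10 T cell and 5 of 8 NK cell markers. In KO these were 7, 10, 2 and 3. Of all genes, 75.5% in WT and 74.2% in KO were called in either direction.

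The effect of host genotype in tumors was set against that in 14-day lungs in 1 fit of the 24 samples. It was larger in tumors for 2 of 6 members, beside 0.558% of all genes, and smaller for none. The difference was 2.90 ± 0.65 for Ly6i (log2; edgeR FDR = 0.0329) and 1.46 ± 0.34 for Ly6a (FDR = 0.0395). Ly6i entered this fit through its counts in lungs, so that its place among the 2 is no support for a difference of the family. It had no value when at least 10 counts were asked of every sample, and Ly6a was then the 1 member called. Without the 2 lungs high in type I interferon genes, the difference was 2.95 ± 0.66 for Ly6i (FDR = 0.0301) and 1.43 ± 0.24 for Ly6a (FDR = 0.00247). Ly6c2 was at 1.14 ± 0.50 (unadjusted p = 0.0322, FDR = 0.388), and Ly6c1, Ly6e and Ly6d at 0.28 ± 0.20, 0.23 ± 0.25 and -0.10 ± 0.90.

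Both calls were near the limit of 0.05. Leaving out 1 sample ended the call of Ly6i for KO lungs 1, 3, 4 and 6, WT lungs 3 and 5, KO tumors 5 and 6 and WT tumors 3, 4 and 5 (FDR 0.0553 to 0.0785). It ended that of Ly6a for KO lungs 1, 3, 4, 5 and 6, WT lungs 3, 5 and 6, KO tumors 2, 5 and 6 and WT tumors 2, 3, 4 and 5 (FDR 0.0583 to 0.0854). Neither was called by limma on log2(FPKM + 1) (FDR = 0.0515 for Ly6a and 0.1105 for Ly6i) or on log2(FPKM + 0.1) (0.0621 for both). With the replicate number as a block, edgeR no longer called Ly6i (FDR = 0.0980).

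Within groups, the members other than Ly6d had positive r with each other in both tissues. These values describe deviations of log2 CPM from the group means, over libraries that share depth and composition effects, and carry no test. Over the 20 lungs, Pearson's r between members other than Ly6d ran from 0.55 (Ly6c2 with Ly6i) to 0.97 (Ly6a with Ly6e), and without the 3 lungs standing apart from 0.16 to 0.85 (n = 17). Over the 12 tumors, the same pairs had r of 0.30 to 0.85, the highest being Ly6a with Ly6i and the lowest Ly6c1 with Ly6c2. Ly6d had r between -0.44 and -0.04 with the others in tumors, between -0.02 and 0.13 in the 20 lungs and between 0.0627 and 0.37 in the 17.

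For each member, the genes with the most similar deviations were looked up among all genes tested. Each named gene is 1 of the 3 with the highest r in that tissue, so that a high r is a product of the search. In tumors (n = 12), Ly6a was followed most closely by H2-T23, a nonclassical MHC class I gene (r = 0.97), Pla2g16 (0.96) and the complement gene C2 (0.94). Ly6e was followed by Pml (0.97), the chemokine gene Cxcl10 (0.96) and Lgals9 (0.90). Ly6c1 had Fgl2 (0.97), Ppt2 (0.95) and AW112010 (0.93), and Ly6c2 had Usp25 (0.96), Tor1aip1 (0.92) and the interferon regulatory factor gene Irf7 (0.92). By Spearman's rho none of these last 3 was among the 3 genes most like Ly6c2, which was far higher in KO tumor 2 than in the other tumors. Ly6i, kept in this search although below the filter, had Slc28a2 (0.92), Avil (0.91) and again C2 (0.90).

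In lungs (n = 20), Ly6a was most like Trim30a (0.97), Xaf1 (0.96) and Ifi44 (0.96), and Ly6e like Trim30a (0.97), RP24-328P2.5 (0.97) and Samd9l (0.96). Ly6c2 had Pyhin1 (0.93), Slfn1 (0.90) and Slfn4 (0.89), Ly6i had the immunoproteasome genes Psmb8 (0.88) and Psmb9 (0.86) with Apol9b (0.86), and Ly6c1 had Tsr1 (0.87), Etnk1 (0.87) and AI607873 (0.86). With the 3 lungs left out (n = 17), the same genes had r of 0.84, 0.81 and 0.82 with Ly6a. None of the 3 genes named for Ly6c1 was then among the 50 most like it. By Spearman's rho over the 20 lungs, none of the genes named for Ly6c1 or Ly6e was among the 3 most like that member, and all were among the 50. The 3 genes most like Ly6c2 among those 17 lungs were the neutrophil genes Cxcr2, Csf3r and S100a8.

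Ly6d had other genes as its nearest in both tissues. In tumors its nearest genes were Sfn (r = 0.95), Perp (0.94) and Lgals7 (0.94), which are known from stratified epithelium, and Lgals7 is itself in the squamous list. By Spearman's rho none of these was among the 3 genes most like Ly6d in tumors, and all 3 were among the 50 most like it. KO tumor 1 and WT tumor 6, the 2 tumors with high Ly6d, had the highest mean log2 CPM of 5 squamous markers, 5.55 and 5.51, against 0.143 to 4.10 in the other 10 tumors. The 10 squamous markers summed to 657.6 FPKM at the highest in KO and 397.7 FPKM at the highest in WT tumors, with medians of 27.3 and 57.2 FPKM, and were led by Krt14, Lgals7 and Krtdap. Squamous genes were nearly absent from lungs, at 0.51 to 3.17 FPKM in sum.

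In lungs, the genes most like Ly6d included the antibody heavy chain gene Ighm (r = 0.86) and Fcer2a (0.84), both known from B cells, and Fcer2a is itself in the B cell list. By Spearman's rho neither was among the 3 genes most like Ly6d in lungs, and both were among the 50 most like it. Ly6d FPKM were 1.02, 5.45 and 13.4 at the lowest, median and highest in 14-day KO lungs and 2.28, 5.08 and 6.91 in 14-day WT lungs. The control KO lungs were at 2.08, 5.68, 6.99 and 7.71 FPKM and the control WT lungs at 6.23, 6.42, 10.2 and 12.2 FPKM. The 3 lungs with the highest Ly6d were also the 3 with the highest mean log2 CPM of 10 B cell markers, at 3.702, 3.707 and 3.999, whereas the lowest lung in that list was at 1.79. Counts of Ly6d were low throughout, at 3 to 54 per lung, and the part of B cells in its level was not tested.

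**Figure D4:**
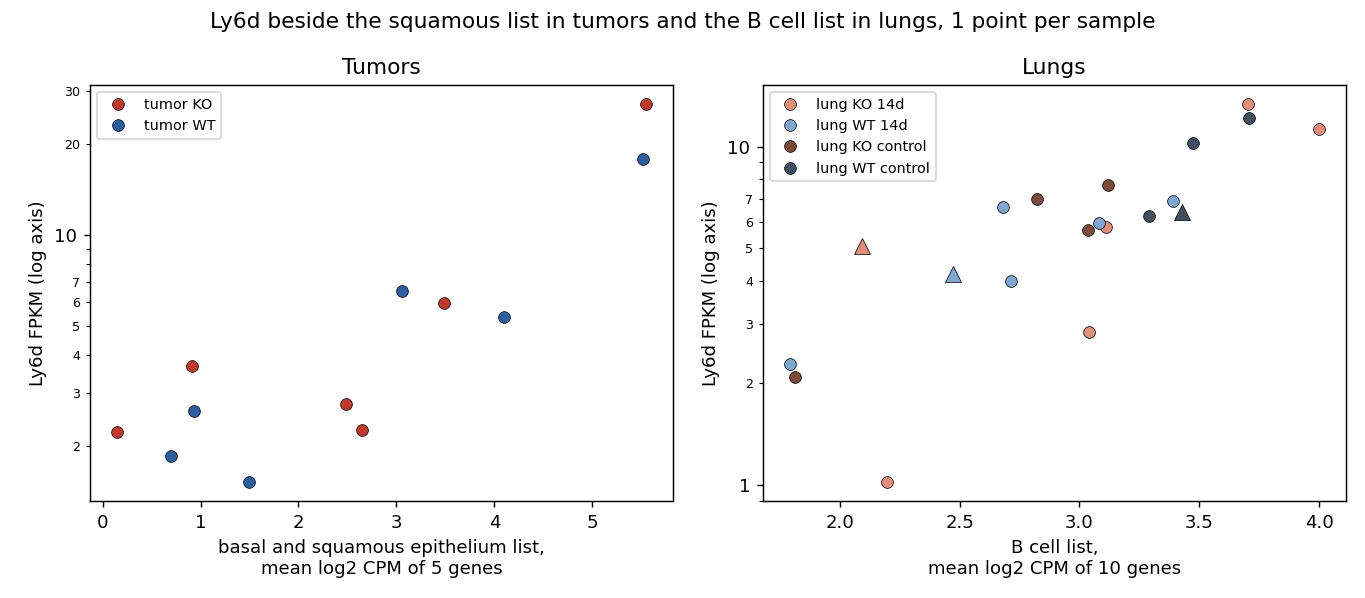
Ly6d FPKM (log axis) against the mean log2 CPM of 5 squamous markers in 12 tumors (left) and of 10 B cell markers in 20 lungs (right), 1 point per sample. The 2 tumors highest in Ly6d, at 27.2 and 17.9 FPKM, are also the 2 highest in the squamous list, one from each host genotype.

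Of 41 other genes of the Ly6/uPAR family, 5 had enough counts to be tested in tumors and 10 in lungs. None was called in tumors or in the 4 lung comparisons between 2 groups, and their median log2 fold change in tumors was 0.03 against 0.65 for the 4 members tested. These medians rest on 5 and 4 genes, and members and lists were chosen with earlier results of these data known. They are no support for members that stand apart from the family. The most abundant of the other genes were Plaur, the urokinase receptor, in tumors (36.2 FPKM on average) and Gpihbp1, the lipoprotein lipase anchor of capillaries, in lungs (142.1 FPKM). Between tumor and lung, 9 of 11 were lower in tumor in WT and 8 of 11 in KO hosts, beside 38.4% and 37.2% of all genes, and 2 were higher in each. Only 5 of the list passed the filter in tumors, so that others passed it here through the lungs, the higher group. The counts of lower genes are therefore no support for a difference of the family. The smallest p was that of Gpihbp1 (log2 difference -4.86 ± 0.24 in WT; edgeR FDR = 7.23e-16). Ly6g, the neutrophil antigen gene, had 0 counts in all 12 tumors, which allows up to 3 counts in a library of this depth by counting error alone. In lungs it reached 2.78 FPKM and 4 counts at most, while the 10 neutrophil markers summed to 108.5 to 883 FPKM in 14-day lungs.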

How the data were processed

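Libraries were poly(A)-selected, stranded and sequenced as read pairs. Per the labels, reads were aligned with STAR and quantified with RSEM on mm10 (GRCm38). The annotation version and strand setting are not given in the sources used here. The authors deposited RSEM expected counts, as whole numbers, for 29511 genes and FPKM for 29434 genes, and both were used as deposited. Counts per sample were 4446323 to 8318711. Rn7s1, Rn7s2 and Rn7sk made up 58.1% to 70.2% of the summed FPKM of a sample. Tests used counts.

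edgeR 4.0.16 (R 4.3.3; TMM, filterByExpr, quasi-likelihood F test, Benjamini-Hochberg over all genes) was run in 1 fit of 12 tumors, 1 of 20 lungs and 1 of the 24 samples of 14 days. Calls were made at an FDR of 0.05, or 0.25 among lungs. SE is the log2 fold change over the root of F. Alternatives were DESeq2 1.42.0, limma 3.58.1 on log2(FPKM + 1) and log2(FPKM + 0.1), other scaling, filters and limits, a replicate block and leaving out samples. Leaving out the 3 lungs high in type I interferon genes was chosen after seeing the data. In counts simulated with 200 changed genes, the tumor fit recovered 83.7% of changes of 1 on the log2 scale, the lung fit 84.0% and the tumor and lung fit 81.8%, and 4.30%, 21.5% and 3.83% of their calls were false. The genes were changed in 1 group by 1 or 2, and all others kept the same mean in every group. These figures therefore do not extend to smaller changes, to tissues in which most genes differ or to lungs that stand apart.

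Named genes are the 6 members, the 3 most abundant genes and the called gene of smallest p of each list, and the 3 genes most like each member in Pearson r. Of the most abundant list genes, those beside which a member is described are printed, and a single one of the genes most like a member is not reported here. The members, the gene lists and this rule were chosen with earlier results of these data known. Positions and coding bases are from GENCODE M21 on GRCm38.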

Additional observations from a re-analysis of the deposited data

Results flagged for a closer look

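The 9 values below lay far from the rest of their group by Dixon's test, out of 36 groups of a member tested. Chance alone flags about 1 in 20 such groups, or 1.8 here. In 14-day KO lung 2, Ly6a was 728.1 FPKM (next in its group 407.6), Ly6e was 1075.8 FPKM (next 654.4) and Ly6c2 was 40.33 FPKM (next 23.25). In 14-day WT lung 5, Ly6a was 782.2 FPKM (next 435.9) and Ly6e was 1054.3 FPKM (next 631.6). In control WT lung 4, Ly6c2 was 47.72 FPKM (next 18.33) and Ly6i was 6.42 FPKM (next 2.23). These 3 lungs are those with the highest type I interferon list, whose part was not tested. Ly6d was 27.19 FPKM in KO tumor 1 (next 5.94) and 17.88 FPKM in WT tumor 6 (next 6.51).

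The effect of host genotype differed between tumor and 14-day lung for Ly6a, by 1.457 on the log2 scale, and for Ly6i, by 2.901, in edgeR's test of that difference. Ly6i passed the filter of that fit through its counts in lungs. Leaving out 1 sample ended the call in 15 of 24 fits for Ly6a and in 11 of 24 for Ly6i, and limma on FPKM called neither.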

How the results depend on the processing

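The rise of Ly6a in KO tumors kept its direction and call under all 9 alternatives (FDR 5.15e-12 to 0.00484), and every lung count stayed at 0. Of the 3 members called in tumors, 1 was called with limma on either FPKM scale and 1 with a 2-fold limit. Leaving out 1 tumor gave 1 to 3 members called. A 2-fold limit gave 1 of the 2 members called between KO tumors and KO lungs. For the host effect in tumor against lung, 1 of 2 members was called with at least 10 counts in every sample, 0 with limma on either FPKM scale, and 0 to 2 when 1 sample was left out. With the replicate number as a block, 1 member was called there, Ly6a (FDR = 0.0388; Ly6i 0.0980), and Ly6e in tumors lost its call (FDR = 0.123). Within a tissue, same-numbered samples did not all deviate together (r from -0.278 to 0.227), which does not bear on pairs of tumor and lung. Between tumor and lung, r ran from -0.0136 to 0.212. The own number was the best match in 4 of 6 KO and 2 of 6 WT tumors, and all 6 KO tumors had a positive r with their own lung number. These values do not settle the pairing, and the main fits treated the samples as independent. Whether a tumor and a lung of the same number came from 1 mouse is not given in the labels. The causes of these changes were not tested.

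Signs turned for uncalled values near 0. With the block, the log2 differences of 14-day from control lungs were -0.0581 for Ly6c2 and -0.0135 for Ly6d in KO and -0.31 for Ly6c2 in WT, that of KO from WT lungs at 14 days was 0.0489 for Ly6a, and that of KO tumor from lung -0.14 for Ly6d. With limma and a pseudocount of 1 or 0.1, they were -0.0425 for Ly6d in KO (0.1 only), -0.062 and -0.0716 for Ly6c2 in WT, 0.0933 and 0.107 for Ly6i and 0.0015 and 0.0016 for Ly6a between genotypes at 14 days, 0.0332 and 0.0372 for the Ly6i interaction, and, between tumor and lung, -0.10 and -0.19 for Ly6d in WT, -0.11 and -0.11 for Ly6d in KO, -0.11 and -0.16 for Ly6i in KO, with 0.0769 for the Ly6d host effect (0.1 only). Without the lungs high in type I interferon genes, they were 0.0287 for Ly6a at 14 days, 0.0536 for Ly6c2 and 0.23 for Ly6a in controls, -0.0541 for Ly6c2 and -0.20 for Ly6a in the interaction, and 0.16 for Ly6e between KO tumor and lung.

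Leaving out 1 sample also turned signs. Between 14-day and control lungs, Ly6d in KO ran from -0.0946 to 0.48, Ly6c2 in WT from -0.30 to 0.51 and Ly6e in WT from -0.21 to 0.17. Between genotypes at 14 days, Ly6c2 ran from -0.42 to 0.16, Ly6i from -0.23 to 0.12, Ly6e from -0.17 to 0.26 and Ly6a from -0.24 to 0.26. In controls, Ly6c2 ran from -0.55 to 0.0406, Ly6i from -0.11 to 0.60 and Ly6a from -0.15 to 0.22. In the interaction, Ly6c2 ran from -0.30 to 0.51, Ly6i from -0.62 to 0.0853, Ly6a from -0.23 to 0.27 and Ly6c1 from -0.16 to 0.10. Between tumor and lung, Ly6d ran from -0.45 to 0.49 in WT and from -0.90 to 0.52 in KO, Ly6i in KO from -0.25 to 0.43, Ly6e in KO from -0.14 to 0.13, and the Ly6d host effect from -1.20 to 0.64. Low counts of Ly6d and Ly6i limit their precision.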

Other observations

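The deposited counts and FPKM of a gene give the transcript length that the quantification assigned to it, as the count over FPKM and library total. For Ly6c2 this implied length had a median of 798.5 bases in KO tumors, 912.3 bases in WT tumors, 1087 and 1076 bases in 14-day KO and WT lungs, 1536 bases in control KO lungs and 1140 bases in control WT lungs. For Ly6a the group medians lay between 651.1 and 675.8 bases, and for Ly6e between 816.6 and 839.1 bases. For Ly6i the median was 757.2 bases in KO and 947.2 bases in WT tumors, and between 712.1 and 801.5 bases in the lung groups. Fold changes of Ly6c2 and Ly6i therefore differ between counts and FPKM.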
